A study of Mus musculus with 12 samples.

Results

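The genes described here belong to 3 families that act on G-protein signalling: the prokineticin receptors, the R7 group of RGS proteins with their partners, and the sphingosine kinases. The symbols were Prokr1, Prokr2, Rgs6, Rgs7, Rgs9, Rgs11, Gnb5, Rgs7bp, Sphk1 and Sphk2. All probes that the platform annotation assigns to them were taken, which gave 15 of the 25697 probes on the array. They cover 9 of the 10 symbols, among 16593 genes with a named probe. Rgs11 has no named probe here and was not analysed. The families were picked because Prokr1, Rgs6 and Sphk1 had been found lower in the mutants of this comparison, so every difference between mutant and control pools given for these genes is a description and supports nothing by itself.

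RNA was taken from dorsal root ganglia of lumbar levels 3 to 6 of mice aged 15 days, on a background labelled C57/BL6;129Ola mixed. There were 6 pools of control mice, labelled wildtype, and 6 pools of mice labelled c-Maf mutant, in which Isl1-Cre acts on a conditional allele of Maf. Isl1 is made by sensory neurons of the ganglion and also by other cells of the body, and whether the controls carried the Cre or the conditional allele is not stated in the sources used here. The number of mice in a pool is not stated either, so the errors below rest on the spread between pools and not between mice. Each pool went onto 1 single-colour Illumina array, with replicates 1 to 3 of each group on the first BeadChip and replicates 4 to 6 on the second.

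Prokineticin receptors are cell-surface receptors for the small secreted proteins Prok1 and Prok2. They couple mainly to Gq proteins, and in sensory neurons that detect painful stimuli they are known for lowering the threshold of those neurons. R7 RGS proteins speed up the switching-off of Gi/o alpha subunits, and they are stable as proteins only when bound to the divergent G beta subunit Gnb5, while Rgs7bp anchors the complex to the membrane. Sphingosine kinases phosphorylate sphingosine to sphingosine 1-phosphate (S1P), a lipid that is sensed by its own G-protein-coupled receptors.

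Maf proteins bind DNA at a palindrome whose arm reads TGCTGA, and the middle of that palindrome can also read as the AP-1 type core TGAGTCA. The bases before the annotated starts of the member genes are shown because several members were lower together in pools without detectable Maf. Each sequence is 250 bases long and ends just before the start of the gene, is written 5′ to 3′ on the strand of the gene, and comes from RefSeq on build GRCm38.p6. Capitals mark an arm or a core on either strand. For Sphk1, which has 5 annotated starts, the second in the direction of the gene is given because its window holds a motif.
Prokr1, chr6:87590744-87590993, minus strand: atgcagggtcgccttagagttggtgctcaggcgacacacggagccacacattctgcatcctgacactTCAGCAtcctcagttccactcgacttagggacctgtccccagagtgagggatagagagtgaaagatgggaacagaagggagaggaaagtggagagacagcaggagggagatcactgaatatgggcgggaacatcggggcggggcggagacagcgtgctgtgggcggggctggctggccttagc
Prokr2, chr2:132385448-132385697, minus strand: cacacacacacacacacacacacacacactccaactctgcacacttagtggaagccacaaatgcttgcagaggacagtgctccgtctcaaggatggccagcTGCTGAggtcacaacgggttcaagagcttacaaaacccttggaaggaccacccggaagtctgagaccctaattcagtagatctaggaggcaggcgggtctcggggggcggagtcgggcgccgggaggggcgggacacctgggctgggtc
Rgs6, chr12:82617249-82617498, plus strand: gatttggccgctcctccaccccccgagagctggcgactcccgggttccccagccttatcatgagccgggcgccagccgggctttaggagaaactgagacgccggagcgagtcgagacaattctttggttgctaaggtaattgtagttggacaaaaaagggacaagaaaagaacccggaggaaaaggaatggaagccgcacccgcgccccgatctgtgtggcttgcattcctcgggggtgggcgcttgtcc
Sphk1, chr11:116531587-116531836, plus strand: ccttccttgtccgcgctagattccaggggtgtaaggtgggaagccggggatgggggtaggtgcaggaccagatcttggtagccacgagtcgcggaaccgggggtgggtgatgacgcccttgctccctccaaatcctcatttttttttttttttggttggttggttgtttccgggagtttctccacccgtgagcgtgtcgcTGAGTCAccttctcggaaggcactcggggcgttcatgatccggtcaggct

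The Prokr1 window held an arm beginning 183 bases before the start and the Prokr2 window held one beginning 149 bases before it. The Rgs6 window held neither motif. The Sphk1 window held a core beginning 50 bases before the start, and the window of the third start, which overlaps it, held the same core, while the other 3 Sphk1 windows held neither motif. Over all members, 9 genes had 14 windows, and an arm lay in 4 of these windows, those of Prokr1, Prokr2, Rgs9 and 1 of the 2 Sphk2 windows. Of all 32851 windows of this length, 16.1% held TGCTGA and 4.46% held TGAGTCA on either strand. These matches describe letters only, and no binding was measured.

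Levels are log2 normalized intensities, with an offset of 16 added after the background correction, and a probe counts as detected on an array when its detection p is under 0.05. Probes detected on at least 6 of the 12 arrays were tested, which kept 13177 probes of the array. Of the 15 member probes 10 were kept, covering Prokr1, Prokr2, Rgs6, Rgs7, Gnb5, Rgs7bp, Sphk1 and Sphk2. The targeted gene was checked first. The single Maf probe lay between 7.11 and 7.87 in control pools and between 4.49 and 4.70 in mutant pools, and no mutant array detected it, a level at least 4.48-fold lower. Maf lies on chromosome 8, and none of the members does. Arrays detected 12822 to 13491 probes each and correlated with each other at 0.976 to 0.992, and mutant replicate 3 had the lowest median correlation with the others.

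Prokr1, Rgs6 and Sphk1 were lower in mutant ganglia. For Rgs7, Gnb5, Rgs7bp and Sphk2 the mutant pools overlapped the controls, though some mutant pools lay outside the control range. Their changes ran from -0.049 for Rgs7bp to 0.18 for the second Gnb5 probe. The groups also overlapped for Prokr2, with a larger change of -0.35. Of the 10 tested member probes 4 passed an adjusted p of 0.05 over all probes in limma: 2 for Prokr1, 1 for Rgs6 and 1 for Sphk1, each lower in the mutants. Over the whole array 0.235% of tested probes passed in either direction. Nothing can be read from that contrast, because these genes were picked for having passed. The same 4 probes were the ones whose mutant and control pools did not overlap, where 0.562% of all tested probes were separated in that direction. The median change of the 10 probes was -0.20 and that of all tested probes 0.00259. The ganglion is a mixed tissue, so fewer cells of a type and less RNA per cell cannot be told apart in any of these values.

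Prokr1 is 1 of the 2 receptors for prokineticins, and 2 probes measured it. The first had levels from 8.81 to 9.48 in control pools, with a median of 9.06. In mutant pools it ran from 7.89 to 8.47, with a median of 8.26. Every mutant pool thus lay below every control pool, with a gap of 0.34 between the groups. Control replicate 6 was the highest pool and mutant replicate 3 the lowest. The means were 9.07 ± 0.23 and 8.25 ± 0.20 (SD, n = 6 each), a change of -0.82 (SE 0.12), or 1.76-fold lower.

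The second Prokr1 probe, annotated to the same transcript, gave the same order of groups near background. Its levels ran from 5.84 to 6.35 in controls, with a median of 6.18, and from 5.07 to 5.64 in mutants, with a median of 5.40. It was detected in all 6 control pools and in 4 of 6 mutant pools, mutant replicates 2 and 3 being the undetected ones. The change was -0.77 (SE 0.11). Without background correction the size was -0.40. In the authors' processed table, which may differ from the other values in more than its background handling, it was -1.15. Across the 12 pools the 2 probes correlated at r = 0.92, and at r = 0.58 once each group mean was subtracted.

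Prokr2, the other prokineticin receptor, is best known for its part in the development of the olfactory bulb and of the neurons that control reproduction. Its probe ran from 6.49 to 6.97 in control pools, with a median of 6.64, and from 5.99 to 6.76 in mutant pools, with a median of 6.30. Mutant replicate 1 stood within the control range and above most controls, and the other 5 mutant pools stood below every control pool. The change was -0.35 (SE 0.12, 95% interval -0.60 to -0.099), and the probe did not pass the threshold over all probes. Prokr1 and Prokr2 correlated at r = 0.65 over the 12 pools, and at r = 0.17 after the group means were subtracted. The pools share the genotype contrast and the arrays, so these coefficients are descriptions.

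**Figure D1:**
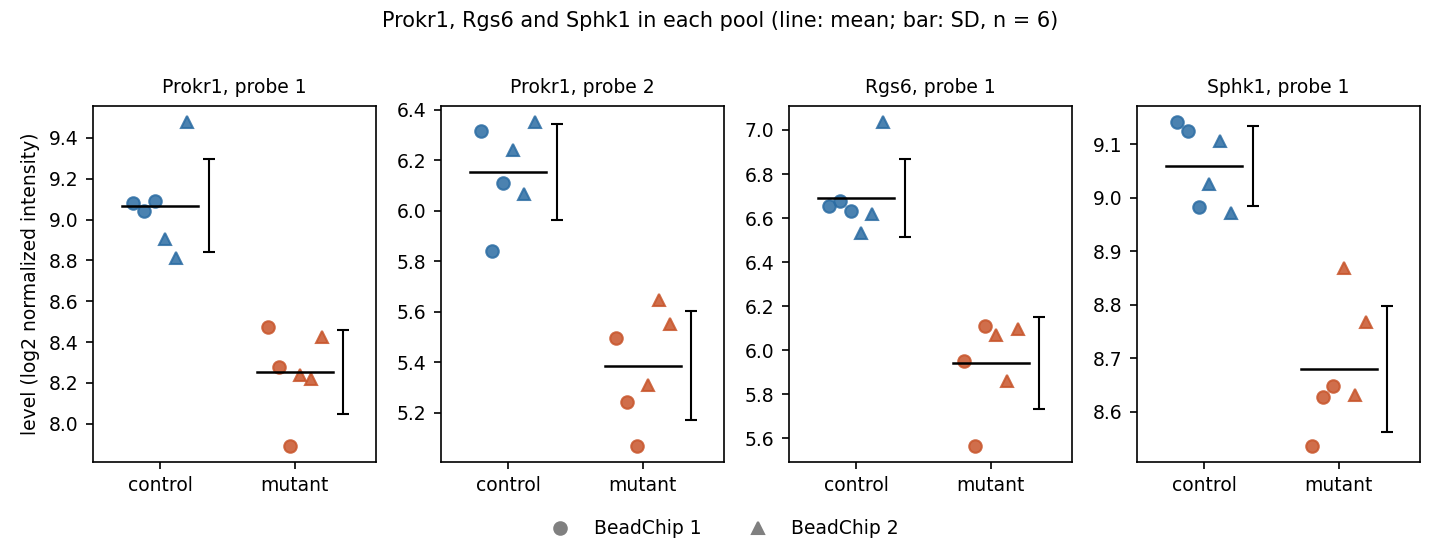
Level of the 4 member probes that passed the threshold, as log2 normalized intensity on separate vertical scales, in 6 control and 6 mutant pools, with circles for BeadChip 1, triangles for BeadChip 2, a line at the group mean and a bar for the SD. In each panel all mutant pools lie below all control pools, with a gap of 0.34 for the first Prokr1 probe and 0.10 for Sphk1.

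Rgs6, an R7 RGS protein, ran from 6.53 to 7.04 in control pools, with a median of 6.64. In mutant pools it ran from 5.57 to 6.11, with a median of 6.01. The groups did not overlap, and 0.42 separated them. Control replicate 6 stood well above the other controls, which lay between 6.53 and 6.68, and mutant replicate 2 was the lowest pool. All 12 arrays detected the probe, though its mutant levels were not far above background, with a detection p of 0.026 in mutant replicate 2. The means were 6.69 ± 0.18 and 5.94 ± 0.21 (SD, n = 6 each), a change of -0.75 (SE 0.11). The size was -0.45 without background correction and -0.94 in the authors' processed table.

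The other R7 gene with a detected probe stood near its control level. Rgs7, the member of the group that is widely used in neurons, ran from 10.80 to 11.06 in controls and from 10.81 to 11.25 in mutants, with medians of 10.94 and 11.08. The change was 0.13 (SE 0.081, 95% interval -0.047 to 0.30). Rgs9, known for ending the light response in photoreceptors, was detected on none of the 12 arrays, so it has no measured difference here.

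Gnb5, the obligate partner of the R7 proteins, has 3 probes. The first ran from 10.85 to 10.94 in controls and from 10.88 to 11.16 in mutants, with medians of 10.88 and 10.95. Its control pools were close together (SD 0.033), and the mutants spread more widely (SD 0.11), with replicates 2 and 6 the highest. The change was 0.12 (SE 0.066, 95% interval -0.025 to 0.26). The second probe changed by 0.18 (SE 0.15, 95% interval -0.14 to 0.50), with mutant pools from 8.41 to 9.26 around controls from 8.53 to 8.95. The third was detected on none of the arrays.

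Rgs7bp, the palmitoylated membrane anchor of the R7 complex, ran from 13.07 to 13.50 in controls and from 12.69 to 13.44 in mutants, with medians of 13.25 and 13.35. Mutant replicate 3 was the lowest pool. The change was -0.049 (SE 0.13, 95% interval -0.32 to 0.23), and without mutant replicate 3 it was 0.056. None of Rgs7, Gnb5 and Rgs7bp passed the threshold, and the intervals leave room for changes of up to 0.32 downwards for Rgs7bp and 0.50 upwards for the second Gnb5 probe.

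Sphk1, the kinase that makes S1P mainly in the cytoplasm, was measured by 1 of its 3 probes. That probe ran from 8.97 to 9.14 in control pools, with a median of 9.07, and from 8.54 to 8.87 in mutant pools, with a median of 8.64. The groups did not overlap, though only 0.10 separated the lowest control from the highest mutant, replicate 4. The means were 9.06 ± 0.07 and 8.68 ± 0.12 (SD, n = 6 each), a change of -0.38 (SE 0.071), or 1.30-fold lower. This was the member closest to the threshold: its side of it changed in 17 of 24 alternative analyses, among them the chip as a block, the replicate block and the omission of any pool other than mutant replicate 4. The change stayed below 0 in all 24, from -0.48 to -0.28.

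The remaining Sphk1 probes, 1 of them annotated to another transcript, were detected on none of the 12 arrays. Sphk2, the kinase found largely in the nucleus and at internal membranes, ran from 9.18 to 9.51 in controls and from 9.07 to 9.57 in mutants, with medians of 9.37 and 9.34. The change was -0.043 (SE 0.087, 95% interval -0.23 to 0.14). Its second probe was detected on 1 of the 12 arrays and was not tested.

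**Figure D2:**
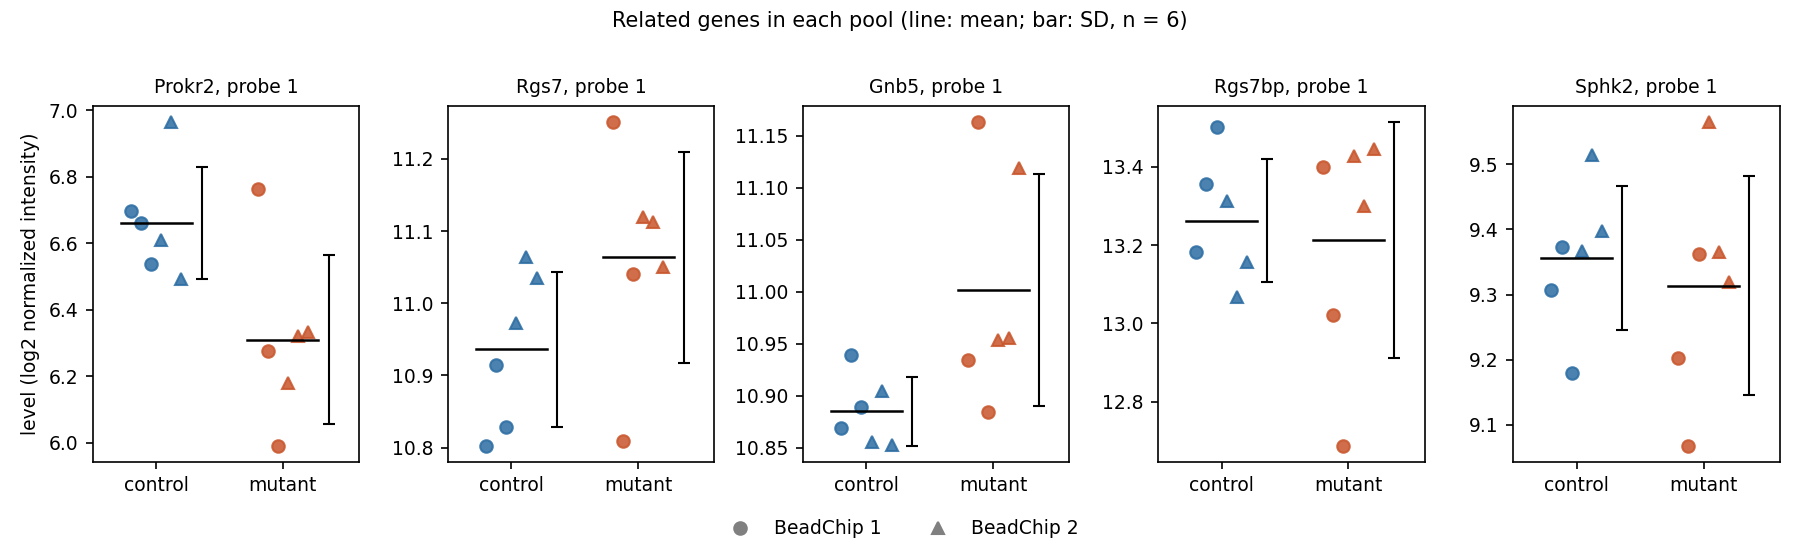
Level of Prokr2, Rgs7, the first Gnb5 probe, Rgs7bp and Sphk2, as log2 normalized intensity on separate vertical scales, in 6 control and 6 mutant pools, with circles for BeadChip 1, triangles for BeadChip 2, a line at the group mean and a bar for the SD. Mutant and control pools overlap in each panel, and 1 mutant pool of Prokr2 lies at 6.76 among the controls.

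**Figure D3:**
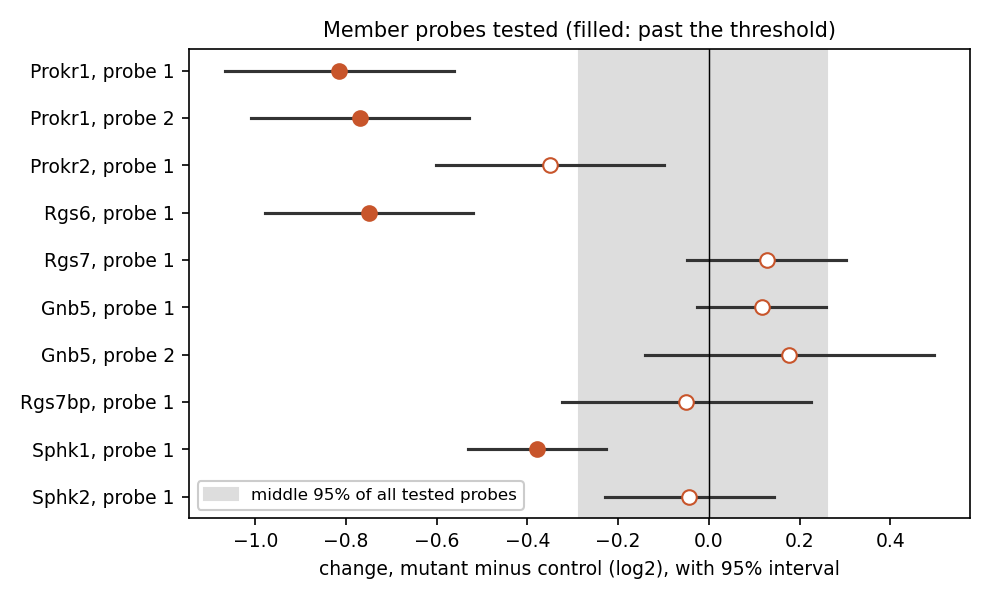
Change of each tested member probe, mutant minus control on the log2 scale, with its 95% interval, filled where the probe passed the threshold, beside a grey band for the middle 95% of all tested probes. The points of Prokr1, Rgs6, Sphk1 and Prokr2 lie below the band, which runs from -0.29 to 0.26, and the other points lie inside it. The intervals of Sphk1 (-0.53 to -0.23) and Prokr2 (-0.60 to -0.099) reach into the band. Those of Rgs7, Rgs7bp and the second Gnb5 probe reach beyond it.

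The genotype change was also read on each BeadChip. For Prokr1, Rgs6 and Sphk1 the values by chip are a description only, because a gene passes the threshold more easily when its change is alike on both chips. The difference between chips in the genotype change was tested in limma as the product of genotype and chip over all probes. No member passed, nor did any of the 13177 probes (0% of tested probes), while 2.82% of all probes had an unadjusted p under 0.05. Among the members only Rgs7bp had one. Its change was -0.31 on BeadChip 1 and 0.21 on BeadChip 2, a difference of 0.52 (SE 0.23, unadjusted p = 0.0394, limma adjusted p = 1.00). The first Prokr1 probe changed by -0.86 and -0.77 and Rgs6 by -0.78 and -0.72, on the first and second chip. Sphk1 changed by -0.48 on BeadChip 1 and by a smaller -0.28 on BeadChip 2.

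The level difference between chips, with genotype in the fit, was also below the threshold for every member, as for every probe of the array (0% in limma, with 8.54% at an unadjusted p under 0.05). Sphk2 was the 1 member at an unadjusted p under 0.05. Its level was 0.17 higher on the second chip (SE 0.076, unadjusted p = 0.0403, limma adjusted p = 0.552).

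**Figure D4:**
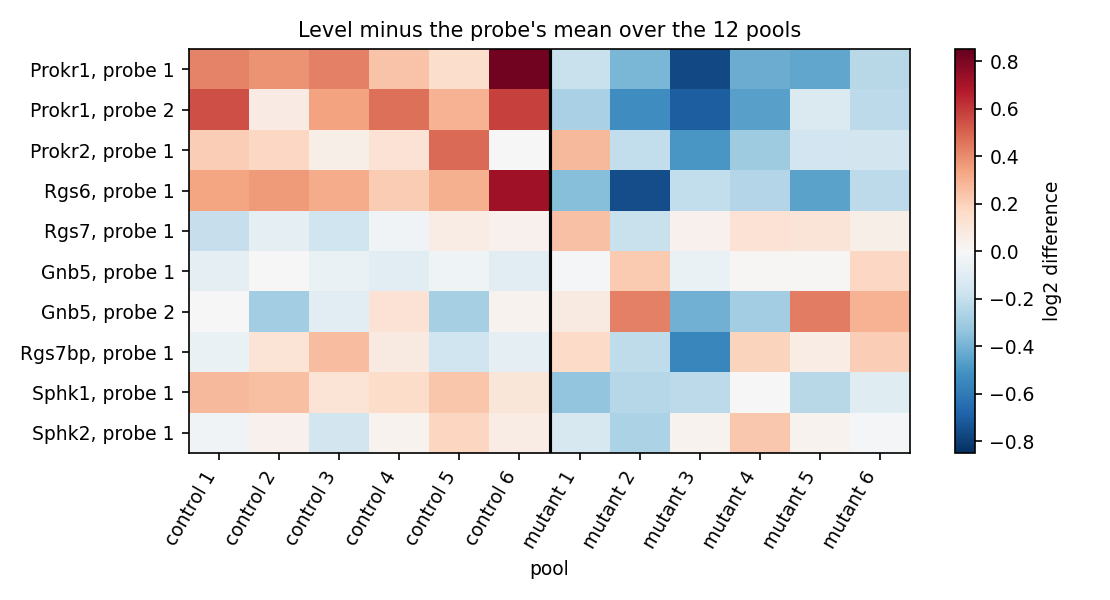
Level of each tested member probe in each pool minus that probe's mean over the 12 pools, in log2 units, red above and blue below the mean, with the 6 control pools left of the black line. The Prokr1, Rgs6 and Sphk1 rows lie above the mean in the controls and below it in the mutants. Some of these cells are near white, as for Sphk1 in mutant replicate 4 (-9e-04) and the second Prokr1 probe in control replicate 2 (0.071). The Rgs7bp row is lowest in mutant replicate 3.

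Pools that were high or low for one of the lower genes were not in general so for the others. After the group means were subtracted, the first Prokr1 probe correlated over the 12 pools with Rgs6 at r = 0.35 and with Sphk1 at r = -0.24, and Rgs6 with Sphk1 at r = 0.14. With the group means left in, these coefficients were 0.88, 0.77 and 0.84, which reflect the genotype difference that the pools share. The genes most like each of them over the 12 pools were looked up among 9223 genes, each by its brightest probe. For Prokr1 these were Kcng4 (r = 0.94), a modulatory potassium channel subunit, Hapln1 (r = 0.93), a matrix link protein, and Maf (r = 0.93). For Rgs6 they were Insyn2b (r = 0.96), Cryba2 (r = 0.94), a beta-crystallin, and Maf (r = 0.93). For Sphk1 they were Omg (r = 0.95), a myelin-associated surface protein of neurons and glia, Lgi2 (r = 0.93), a secreted protein, and the histone gene H4c12 (r = 0.93). After the group means were subtracted, the coefficients of these pairs lay between 0.55 for Sphk1 with Lgi2 and 0.82 for Rgs6 with Insyn2b. The pairs were picked for a high r over these same pools, which favours high values here too, so the coefficients are descriptions. Each of the genes picked was itself past the threshold and lower in the mutants.

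The genes around the members were read from lists of ligands, receptors, G-protein subunits and lipid enzymes, holding 124 genes, of which 75 were tested. In limma 0 of the 75 passed over all probes, where 0.271% of all genes did. At an unadjusted p under 0.05 there were 2 lower and 2 higher, or 5.33% of the 75, against 6.51% of all genes. The median change of the 75 was 0.01 and 34 lay below 0, where 49.0% of all genes did.

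For the prokineticin branch no ligand was measured, since the probes of Prok1 and Prok2 were detected on none of the arrays. Of 12 tested genes that act below Gq-coupled receptors 5 lay below 0 and 7 above, with a median of 0.03. Trpv1, the heat and capsaicin channel of nociceptors, stood at 0.20 (SE 0.12), the kinase Prkcd at 0.10 (SE 0.069) and the alpha subunit Gnaq at -0.017 (SE 0.082).

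For the R7 branch, 4 anchors and receptor partners were tested. Gpr158, an orphan receptor that binds R7 complexes, stood at -0.15 (SE 0.097), and Kctd5 at 0.11 (SE 0.086). Of 9 other RGS genes 7 lay above 0, with a median of 0.06. Rgs12 stood at 0.29 (SE 0.11, limma adjusted p = 0.637), Rgs8 at 0.18 (SE 0.16) and Rgs4 at -0.062 (SE 0.11).

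Among the Gi/o alpha subunits, the substrates of R7 proteins, and the adenylyl cyclases, 6 of 9 lay below 0 with a median of -0.0041. Adcy8, a calcium-stimulated cyclase, stood at 0.45 (SE 0.11, limma adjusted p = 0.236), the smallest adjusted p of the 75 genes. Adcy9 stood at -0.18 (SE 0.096) and Gnao1, the main Go subunit of neurons, at -0.0091 (SE 0.088). The 12 G beta and gamma genes had a median of 0.05, with Gng3 at 0.15 (SE 0.072), Gng4 at 0.28 (SE 0.15) and Gnb2 at 0.081 (SE 0.068).

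Of the 4 GIRK potassium channel genes, whose channels open on free G beta-gamma, Kcnj3 alone was tested. It stood at -0.27 (SE 0.088, limma adjusted p = 0.507). Of 5 tested Gi/o-coupled receptors, the muscarinic receptor Chrm2 stood at -0.53 (SE 0.20, limma adjusted p = 0.661) and the GABA-B subunit Gabbr1 at 0.042 (SE 0.11). None of these genes passed the threshold.

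For the S1P branch, 1 of 5 receptors was tested, S1pr2, at 0.16 (SE 0.16). The probes of S1pr1 and S1pr4 were detected on none of the arrays, S1pr3 on at most 3 and S1pr5 on at most 4. No S1P transporter was tested: the probes of Mfsd2b, Abcc1 and Abca1 were detected on none of the arrays, and Spns2 has no named probe. Of 6 tested genes for S1P breakdown 3 lay below 0 and 3 above. The lipid phosphatases Plpp1 and Plpp3 stood at -0.18 (SE 0.096) and -0.071 (SE 0.076), and the S1P phosphatase Sgpp2 at 0.10 (SE 0.078). The 16 tested genes of ceramide and sphingosine metabolism split 8 to 8, with a median of -0.0086. Cers5 stood at 0.19 (SE 0.11), Sptlc1 at 0.085 (SE 0.066) and Degs1 at -0.029 (SE 0.067).

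**Figure D5:**
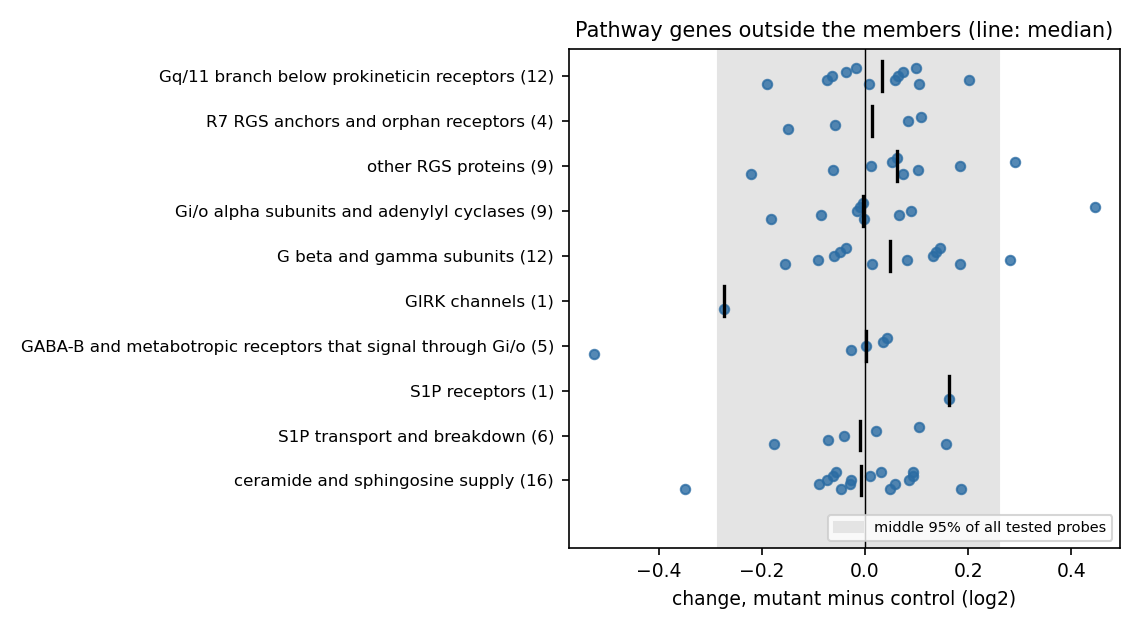
Change of each of the 75 tested pathway genes outside the members, mutant minus control on the log2 scale, 1 point a gene, grouped by list with the number of tested genes in brackets and a line at the median, beside a grey band for the middle 95% of all tested probes. The highest point is Adcy8 at 0.45, the lowest is Chrm2 at -0.53, and no gene shown passed the threshold.

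The tissue and its other cells were read from marker lists. Of 10 sensory neuron markers 9 were tested, and 8 of these were detected in all pools. The Tubb3 probe was detected in 3 of 6 control and 3 of 6 mutant pools, and that of Snap25 in none. The 9 had a mean level of 11.42 to 11.61 in controls and 11.38 to 11.53 in mutants. Their median change was 0.015, with 4 below 0 and 5 above. In limma 0 passed the threshold, though Nefh (-0.30, SE 0.066, limma adjusted p = 0.131) and Isl1 (-0.30) had an unadjusted p under 0.05. The mutants carry Isl1-Cre, and whether that driver bears on the Isl1 level was not tested. For Nefh every mutant pool lay below every control pool. Markers of satellite glia and Schwann cells, 5 of 10 tested with Mbp the brightest (-0.25), had mean levels of 9.68 to 10.01 in controls and 9.57 to 9.89 in mutants. Their median change was -0.25, with 3 below 0 and 2 above. None passed, though Mbp and S100b (-0.36, SE 0.082, limma adjusted p = 0.141) had an unadjusted p under 0.05, and every mutant pool lay below every control pool for S100b. Macrophage markers, 6 of 8 tested with Lyz2 the brightest (0.56), lay between 6.44 and 7.01 in controls and between 6.89 and 7.17 in mutants. Their median change was 0.16, with 5 above 0 and 1 below. None passed, though Lyz2 and, in the other direction, Mrc1 (-0.35) had an unadjusted p under 0.05. Neutrophil markers, 4 of 6 tested with S100a8 the brightest (1.42), lay between 5.65 and 6.87 in controls and between 6.30 and 8.27 in mutants. All 4 lay above 0, with a median of 0.95, and 3 had an unadjusted p under 0.05. None passed, with S100a8 at an SE of 0.48 and a limma adjusted p of 0.525.

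Endothelial (6 of 8 tested, Esam at -0.18), fibroblast and meningeal (8 of 8, Dcn at -0.025) and red blood cell markers (3 of 5, Hba-a1 at 0.021) had medians of -0.055, -0.17 and 0.021, with 0 past the threshold. Below 0 lay 5 of the 6 endothelial, 7 of the 8 fibroblast and meningeal and 1 of the 3 red blood cell markers. Of 3 tested skeletal muscle markers Myh8, the perinatal myosin, passed at -1.25. The other tested ones, Acta1 (0.068) and Actn3 (0.11), lay above 0, and the median of the list was 0.068. Ckm and Mylpf were detected on none of the arrays. Of the spinal cord markers Aqp4 alone was tested (-0.087), and Olig2, Gfap, Slc6a5 and Mnx1 were detected on none. The part of these cell types in the lower levels of Prokr1, Rgs6 and Sphk1 was not tested.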

How the data were processed

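The deposited intensity values are bead summaries from GenomeStudio, per the submitters' processing notes, 1 per probe and array. Per the file headers each array also has a deposited detection p-value for every probe. These values were not background-subtracted and not normalized between arrays. A further table of processed intensity values, deposited by the authors on a linear scale, ranked probes as the first did. Its making is not described in the sources read here. It served as an alternative, with values floored at 16.

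The intensities were background-corrected, quantile-normalized and put on a log2 scale by the neqc function (R 4.3.3, limma 3.58.1). Testing was limited to probes with a detection p under 0.05 on 6 or more of the 12 arrays. Mutant and control pools were compared with lmFit and eBayes on genotype alone, with Benjamini-Hochberg adjustment over 13177 probes. The limma fit and its adjustment were tried on simulated log2 values with independent errors. Background correction, normalization and the detection filter were not part of that trial. Intervals are 95%. Precision is limited by how few arrays there are. Symbols came from the platform annotation, updated by gene identifier to RefSeq GRCm38.p6: 1719 probes had none and 0 had several. A pathway or marker gene was read by its brightest tested probe. Of each pathway list, genes past the threshold, or else the 2 with the smallest p and the brightest, are named, and of each marker list the brightest and any past the threshold. The members and lists were chosen with earlier results of these data known. Nefh, Isl1, Tubb3, S100b, Mrc1, Acta1, Actn3 and undetected genes were named after their values were seen. The fit for the chip level and the promoter motifs were likewise chosen after values were seen.

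Same-numbered pools shared little of their deviation: the correlation of their deviations ran from -0.12 to 0.19 over the 6 numbers, so the numbers were not treated as pairs. For numbers 3 and 6 the mutant pool closest to the control pool was the same-numbered one, and for the other numbers it was not. A replicate block was run as an alternative.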

Additional observations from a re-analysis of the deposited data

Results flagged for a closer look

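Of 30 groups of 6 pools looked at, 1 for each member probe in each genotype, 2 held a pool that stood apart from the rest of its group. By chance this happens in about 1 in 20 groups, or 1.5 of the 30. Both were in control replicate 6. For Rgs6 that pool stood at 7.04 while the other controls lay between 6.53 and 6.68. Without it the Rgs6 change was -0.68 against -0.75 with it. For the second Sphk1 probe, which no array detected, the pool stood at 5.18 while the other controls lay between 4.57 and 4.72.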

How the results depend on the processing

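In the reported analysis 31 probes passed, 3 of them higher in mutants, with 4 of 10 member probes and 0 of 75 pathway genes. Within the first chip alone 4 probes passed and within the second 1, and no member probe did on either (0), each from 3 pools against 3. Leaving out 1 pool at a time gave 21 to 36 probes, 1 to 3 of them higher, and 3 or 4 member probes. The higher count was also 1 with normexp at offset 50, without background correction and when all 12 arrays had to detect a probe, and 5 with trend and robust eBayes. With the replicate block 23 probes and 3 member probes passed, and with the chip as a block 30 and 3. The pathway count was 0 under all 24 alternatives, and the genotype by chip count among members was 0 under all 6 tried. The Sphk1 probe was the 1 member that lost its side of the threshold while the chips were analysed together. No member past the threshold changed sign. For the dim second Prokr1 probe and for Rgs6 the change was -0.40 and -0.45 without background correction, -0.47 and -0.52 with normexp at offset 50, and -1.15 and -0.94 in the processed table. The cause was not tested. Rgs7bp took the opposite sign within the second chip (0.21), with array weights (0.05) and without mutant replicate 3 (0.06), and Sphk2 without mutant replicate 2 (0.0063). Signal over background leaves Rgs9 and 4 further member probes unmeasured.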
